A study of Mus musculus with 6 samples.

Results

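Cytotoxic granule genes were described in DN3 thymocytes of the mouse, the early T cell precursors that lack surface CD4 and CD8. The 10 genes were taken by name from the count tables: the granzymes Gzma, Gzmb and Gzmk, the pore-forming protein Prf1, the granule components Nkg7, Ctsw, Srgn, Lamp1 and Ctsc, and the granzyme inhibitor Serpinb9. They are 10 of the 24015 gene symbols in the tables. Of these 10, 9 passed the filter on low counts, which 12939 genes passed in all, and Gzmk did not. RNA was sequenced from 6 libraries in 3 groups of 2, all from thymocytes sorted as lineage-negative cells without CD4 and CD8 and with low CD44 and high CD25. Control libraries came from wild type mice, for which no Cre transgene is named. p45-deficient libraries came from p45-/- mice, which lack the long isoforms of Tcf1, a transcription factor encoded by Tcf7. Tcf1-deficient libraries came from Lck-cre+ Tcf1 fl/fl mice, in which Cre under the Lck promoter, a promoter of T-lineage cells, ablates all Tcf1 proteins. The sources used here give no age and name no animals, separate or pooled, behind the libraries. The p-values below therefore measure the spread between libraries, which may be technical.

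Cytotoxic lymphocytes store granzymes, which are serine proteases, with perforin in secretory lysosomes packed on the proteoglycan serglycin. On contact with a target cell the granules are released, perforin opens the target's membrane and granzymes enter and cut proteins that lead to cell death. Killer T cells and natural killer cells are the textbook users of this system, and DN3 thymocytes are not known for killing. The comparisons ask how the RNA of these genes differed when the long isoforms of Tcf1, or all Tcf1 proteins, were removed.

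Library totals ran from 19640524 to 28107031 counts, and 3 counts, the limit that a count of 0 allows, corresponded to between 0.110 and 0.145 CPM (counts scaled to the total of the library). Tcf7 stood at 2088 and 1810 CPM in control, 2340 and 2414 CPM in p45-deficient and 979 and 976 CPM in Tcf1-deficient libraries. Its log2 difference from control was −0.995 in Tcf1-deficient cells (SE 0.11, edgeR adjusted p = 0.0762), past the threshold of 0.05 in 4 of 14 alternative analyses, and counts per gene cannot show the loss of the long isoforms alone. All 14 of the DN3 marker genes listed, among them Ptcra, Rag1, Notch1 and Il2ra, were at or above 1 CPM in every library. The 2 Tcf1-deficient libraries were the least alike: 1.78% of the 12939 genes differed at least 4-fold between them, against 0.294% between the control and 0.162% between the p45-deficient libraries. In bulk RNA, fewer cells of a type and less RNA per cell cannot be told apart, which holds for every difference below.

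Levels of different genes were compared per kilobase of exon, as CPM per kb. Gzma, the tryptase-like granzyme, was the most abundant of the 10 transcripts in every group, at 128.8 ± 9.28 CPM per kb (SD, n = 2) in control cells. Per kb it reached 798 ± 5.11 CPM in p45-deficient cells and 259 ± 63.8 CPM in Tcf1-deficient cells. In control cells it was followed by Srgn, the serglycin core protein, at 61.9 ± 28.2 CPM per kb, Lamp1, a lysosomal membrane glycoprotein, at 52.8 ± 1.72, and Nkg7, a granule membrane protein, at 35.5 ± 11.7. The levels of Srgn, Lamp1 and Nkg7 in control cells differed from each other by less than the SD of Srgn. Ctsw, the cathepsin of cytotoxic lymphocytes, came next at 16.0 ± 2.96 CPM per kb, and Ctsc, the protease that activates granzymes, at 8.39 ± 2.28. Serpinb9 at 1.92 ± 0.173 and Gzmb at 1.87 ± 0.550 CPM per kb did not differ beyond their spread. Prf1 at 0.388 ± 0.00624 and Gzmk at 0.0597 ± 0.0343 CPM per kb were lowest. Control DN3 cells thus held Gzma and lysosomal granule RNAs at much higher levels than perforin RNA. In p45-deficient cells Gzmb had a rank of 5 in the order, at 16.2 ± 1.17 CPM per kb, against a rank of 8 in control. In Tcf1-deficient cells its mean of 27.1 CPM per kb had an SD of 34.0, so its rank there is not fixed by these libraries.

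**Figure D1:**
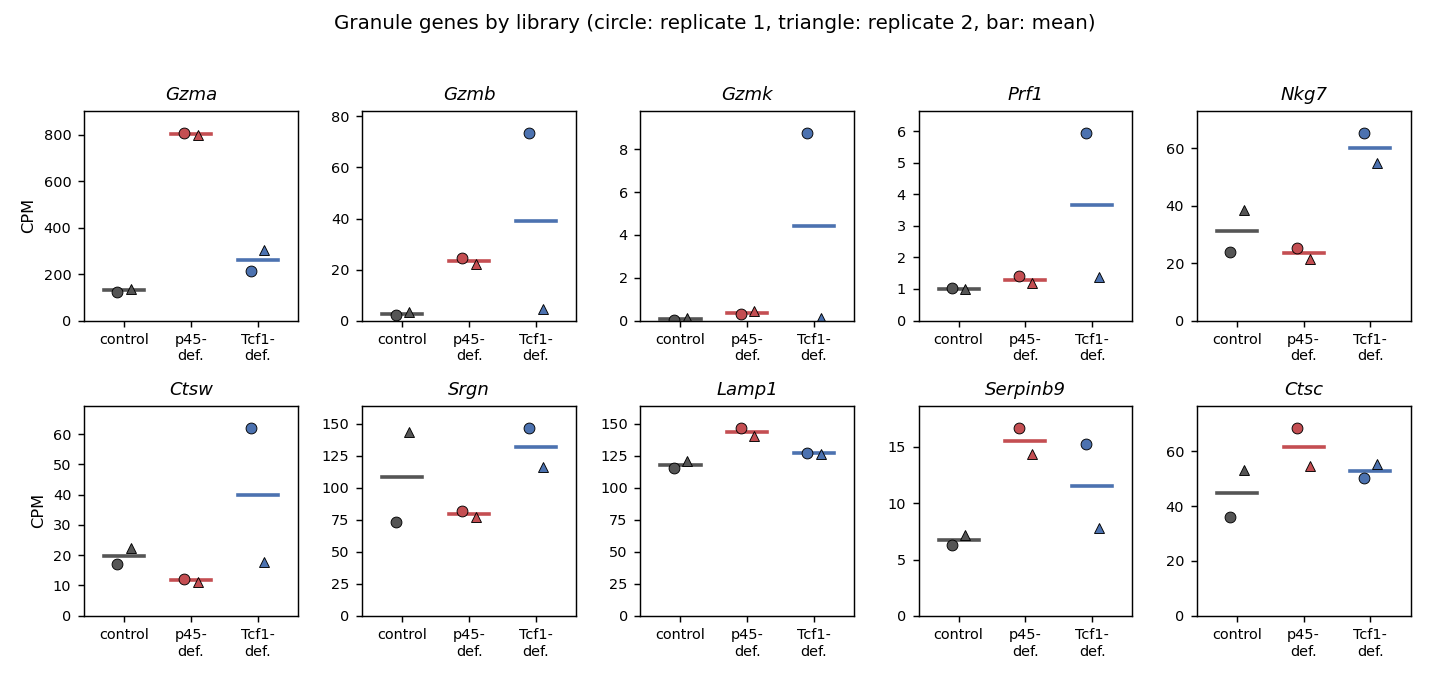
Level in CPM of the 10 cytotoxic granule genes, 1 panel per gene with its own linear axis from 0, by group. Circles are replicate 1, triangles replicate 2 and bars the mean of the 2 libraries. Gzma is highest in the p45-deficient libraries, at 806 and 799 CPM, whereas Gzmb, Gzmk, Prf1 and Ctsw split the 2 Tcf1-deficient libraries, with replicate 1 the higher.

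Against control, p45-deficient cells had more Gzma and Serpinb9 RNA: 2 of the 9 tested members passed the test as higher and 0 as lower. Over all 12939 genes, 8.47% were called higher and 7.55% lower, 16.0% in all. Libraries of the 2 groups did not overlap for 6 members that were higher and 1 that was lower in p45-deficient cells, beside 37.9% and 31.3% of all genes (69.3%). The members' median log2 difference was 0.37, beside 0.05 over all genes. Between Tcf1-deficient and control cells 0 members were called by edgeR, and 0 of all genes (0%). At an unadjusted p under 0.05, 5 of 9 members were higher in Tcf1-deficient cells (Gzma, Gzmb, Prf1, Nkg7 and Serpinb9), beside 4.30% of all genes (7.91% in either direction), and DESeq2 called 3 members, Gzma, Gzmk and Nkg7. All 9 tested members had a mean log2 difference above 0 there, with a median of 0.94 beside 0.01 over all genes, and 6 of 9 did not overlap with control, all higher, beside 16.4% of all genes higher and 18.0% lower (34.4% in all). These values lean on Tcf1-deficient replicate 1: without it the median was 0.31, Ctsw was at −0.16 and the differences of Gzmb, Prf1 and Serpinb9 were 0.70, 0.45 and 0.21. Against p45-deficient cells, Tcf1-deficient cells had more Nkg7 and less Gzma RNA, 1 member called in each direction, beside 5.05% of all genes called higher and 5.36% lower (10.4% in all). Libraries of these groups did not overlap for 3 members that were higher and 2 that were lower in Tcf1-deficient cells, beside 27.7% and 33.3% of all genes (61.0%). The 3 comparisons share libraries, so they are not independent of each other.

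**Figure D2:**
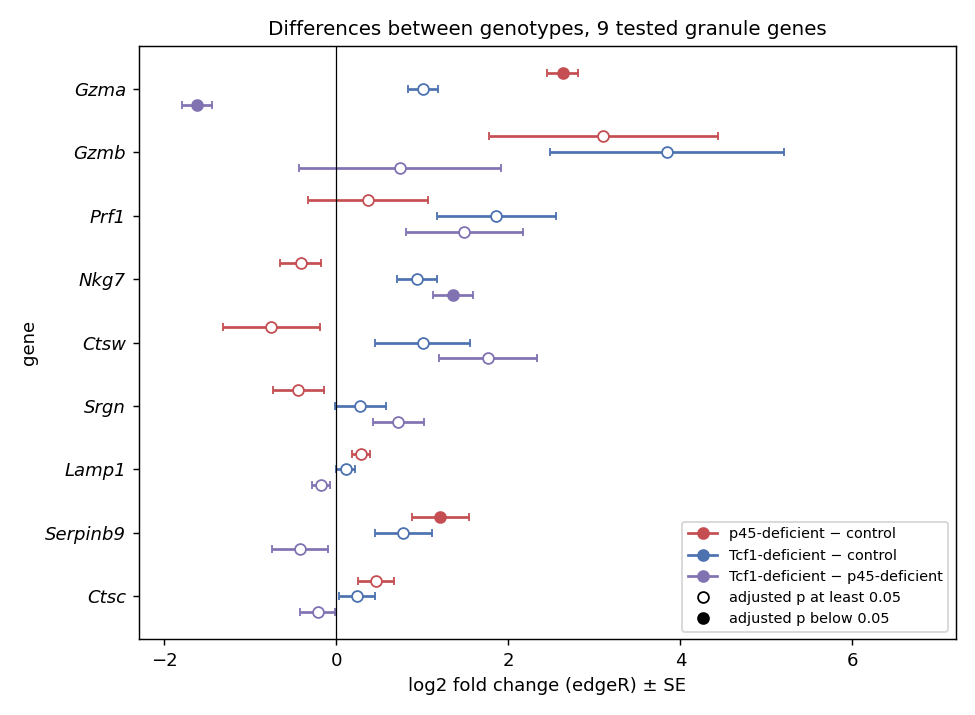
Log2 fold changes of the 9 tested members in the 3 comparisons, with bars of ± 1 SE from the edgeR fit, colours for the comparisons and filled points for an adjusted p under 0.05. The filled points are Gzma and Serpinb9 for p45-deficient against control, and Gzma and Nkg7 for Tcf1-deficient against p45-deficient.

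The stretch of 250 bases before the annotated start is given for the genes on which the comparisons turn: Gzma, Serpinb9 and Nkg7, which passed a test, and Gzmb, which varied most among the 9 tested members. The sequences are RefSeq promoters of the build GRCm38.p6, printed 5′ to 3′ on the strand of the gene, and the table held a window for 9 of the 10 members. They lie at chr13:113100982-113101231 on the minus strand for Gzma, chr14:56262335-56262584 on the minus strand for Gzmb, chr13:33004291-33004540 on the plus strand for Serpinb9 and chr7:43436888-43437137 on the plus strand for Nkg7. Capitals mark matches to the searched motifs on either strand.
Gzma: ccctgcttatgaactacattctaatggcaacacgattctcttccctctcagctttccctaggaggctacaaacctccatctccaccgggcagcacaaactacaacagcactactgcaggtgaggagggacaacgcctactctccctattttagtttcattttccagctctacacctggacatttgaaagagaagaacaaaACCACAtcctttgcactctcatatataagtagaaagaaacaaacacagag
Gzmb: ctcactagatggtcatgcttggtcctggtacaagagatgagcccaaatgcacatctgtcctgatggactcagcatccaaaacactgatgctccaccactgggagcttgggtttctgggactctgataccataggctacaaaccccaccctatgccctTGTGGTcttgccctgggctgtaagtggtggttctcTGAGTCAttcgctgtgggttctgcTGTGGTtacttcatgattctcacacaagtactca
Serpinb9: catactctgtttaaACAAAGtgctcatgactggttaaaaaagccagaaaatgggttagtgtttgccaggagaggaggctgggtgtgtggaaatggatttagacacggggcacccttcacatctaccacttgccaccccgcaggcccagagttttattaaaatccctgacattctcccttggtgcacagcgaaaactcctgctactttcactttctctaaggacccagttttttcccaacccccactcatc
Nkg7: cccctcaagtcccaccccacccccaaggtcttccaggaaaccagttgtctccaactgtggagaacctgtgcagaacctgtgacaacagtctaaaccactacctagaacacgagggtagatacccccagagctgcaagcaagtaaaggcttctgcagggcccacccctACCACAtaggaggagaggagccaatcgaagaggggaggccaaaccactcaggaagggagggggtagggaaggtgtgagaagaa
The motifs, read on both strands, were CTTTGA and CTTTGT, core forms bound by the TCF and LEF factors to which Tcf1 belongs, TGTGGT, bound by RUNX factors, and TGANTCA, bound by AP-1. None of these motifs contains another. TGTGGT was in 6 of the 10 windows of these 9 members and in 14.0% of the 32851 mouse promoter windows of the same length. Its first printed base lay 50 bases before the start of Gzma, 93 and 34 bases before that of Gzmb, and 83 bases before that of Nkg7. The windows of Prf1 and Lamp1 held it as well. Srgn held it in the window at chr10:62507758-62508007 but not in that at chr10:62527446-62527695. CTTTGA was found for Gzmk, 88 bases before the start, and for Lamp1, 152 bases before it, beside 13.8% of all windows. CTTTGT was found for Serpinb9 alone, 236 bases before the start, beside 16.5% of all windows. Gzmb held the AP-1 motif 58 bases before its start, beside 6.75% of all windows. For Gzmb, Gzmk and Prf1 the bases after the annotated start were not found in the GENCODE transcripts of the gene. Their windows and distances thus rest on the RefSeq start alone. These are matches of letters in a short window and describe no binding.

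Gzma, a granzyme that cuts after basic residues, stood at 123 and 136 CPM in control, 806 and 799 CPM in p45-deficient and 215 and 306 CPM in Tcf1-deficient libraries. The 3 groups did not overlap, with control lowest and p45-deficient highest. Gzma was 6.19-fold higher in p45-deficient than in control cells, a log2 difference of 2.63 (SE 0.18, edgeR adjusted p = 0.00108). It passed the test in all 14 alternative analyses, with adjusted p-values up to 0.0204. In Tcf1-deficient cells it was lower than in p45-deficient cells by a log2 difference of −1.62 (SE 0.18, edgeR adjusted p = 0.00492), again in all 14 alternatives, up to 0.0405. The excess over control in Tcf1-deficient cells, a log2 difference of 1.01 (SE 0.17), missed the threshold (edgeR adjusted p = 0.262). It passed in 4 of the 14 alternatives, whose adjusted p-values ran from 0.00013 with DESeq2 to 1. Among the 4 were the fits without Tcf1-deficient replicate 1 (log2 difference 1.24, adjusted p = 0.00881) and without replicate 2 (0.72, adjusted p = 0.0104).

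Gzmb, the granzyme that activates caspases, stood at 2.13 and 3.24 CPM in control, 24.4 and 22.1 CPM in p45-deficient and 73.5 and 4.41 CPM in Tcf1-deficient libraries. Both p45-deficient libraries were above both control libraries, whereas 1 Tcf1-deficient library lay above and 1 below the p45-deficient libraries, 16.7-fold apart (95% exact interval 13.7 to 20.5, counting error only). The log2 difference of p45-deficient from control cells was 3.10 (SE 1.33) and missed the threshold when all 6 libraries shared 1 estimate of spread (edgeR adjusted p = 0.185). Without Tcf1-deficient replicate 1 the same comparison gave 3.05 (SE 0.25, edgeR adjusted p = 0.000219), without replicate 2 it gave 3.10 (SE 0.21, adjusted p = 0.000104), and with the 2 groups alone 3.05 (adjusted p = 0.000309). Adjusted p-values over the 14 alternatives ran from 0.000104 to 0.483. DESeq2 on all 6 libraries did not call it (adjusted p = 0.0774). Tcf1-deficient cells differed from control by 3.84 (SE 1.36, edgeR adjusted p = 0.618), a value set by replicate 1: it was 4.75 without replicate 2 (adjusted p = 0.000307) and 0.70 without replicate 1. Against p45-deficient cells the direction itself turned on that library. The log2 difference was 0.74 with all libraries (SE 1.18, edgeR adjusted p = 0.716), −2.34 when Tcf1-deficient replicate 1 was left out (adjusted p = 0.00375), and 1.65 without replicate 2 (adjusted p = 0.00151).

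Gzmk, a granzyme with trypsin-like activity whose gene lies next to Gzma on chromosome 13 in RefSeq, was near the limit of detection outside 1 library. Control libraries held 1 and 3 of its counts, p45-deficient libraries 8 and 9, and Tcf1-deficient libraries 199 and 3, or 8.75 CPM in Tcf1-deficient replicate 1 and at most 0.431 CPM elsewhere. It was not tested in the edgeR fit. From summed counts, p45-deficient cells had a rate 4.14 times that of control (95% exact interval 1.35 to 16.9, 17 against 4 counts). These intervals cover counting error only, not the spread between libraries. The sum of the Tcf1-deficient libraries, 202 counts, was 50.6 times the control rate (95% exact interval 19.5 to 188), of which replicate 1 held 199. The 2 Tcf1-deficient libraries were 70.1-fold apart (95% exact interval 23.6 to 343). DESeq2, run without that filter, called Gzmk in Tcf1-deficient against control cells (adjusted p = 0.0153), and replicate 2 alone was at the control level.

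Prf1, which encodes perforin, stood at 1.02 and 0.992 CPM in control, 1.40 and 1.20 CPM in p45-deficient and 5.93 and 1.37 CPM in Tcf1-deficient libraries. Only Tcf1-deficient replicate 1 was above 2 CPM. The log2 difference of p45-deficient from control cells was 0.37 (SE 0.70, edgeR adjusted p = 0.748), on 38 and 25 counts against 21 and 26. Tcf1-deficient cells differed from control by 1.86 (SE 0.69, edgeR adjusted p = 0.613). That difference was 0.45 without Tcf1-deficient replicate 1 and 2.55 without replicate 2 (adjusted p = 0.0130), with adjusted p-values from 0.0130 to 1 over the alternatives. Perforin RNA thus did not pass the test in p45-deficient cells, in which Gzma did. The 2 changes were not tested against each other.

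Ctsw, a cathepsin made mainly by killer T cells and natural killer cells, stood at 17.2 and 22.4 CPM in control, 12.2 and 11.3 CPM in p45-deficient and 61.9 and 17.7 CPM in Tcf1-deficient libraries. The p45-deficient libraries were the 2 lowest, and Tcf1-deficient replicate 1 was the highest, 3.49-fold above replicate 2 (95% exact interval 3.13 to 3.90, counting error only). The log2 difference of p45-deficient from control cells was −0.76 (SE 0.56, edgeR adjusted p = 0.398). It passed as lower without Tcf1-deficient replicate 1 (−0.81, adjusted p = 0.0136), without replicate 2 (−0.75, adjusted p = 0.0123) and with the 2 groups alone (adjusted p = 0.0145), and adjusted p-values over the 14 alternatives reached 0.702. Both p45-deficient libraries were thus below control for Ctsw and above control for Gzma. Tcf1-deficient cells differed from control by 1.00 (SE 0.55, edgeR adjusted p = 0.695), which became −0.16 without replicate 1 and 1.63 without replicate 2 (adjusted p = 0.00266). Against p45-deficient cells the log2 difference was 1.76 (SE 0.57, edgeR adjusted p = 0.104), and DESeq2 called it (adjusted p = 0.00156). It was 0.65 when Tcf1-deficient replicate 1 was left out (adjusted p = 0.101), and 2.38 when replicate 2 was left out (adjusted p = 0.000482), with 0.413 the highest adjusted p over the alternatives.

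Nkg7, needed for granule release, stood at 24.0 and 38.5 CPM in control, 25.4 and 21.4 CPM in p45-deficient and 65.3 and 54.8 CPM in Tcf1-deficient libraries. Unlike Gzmb, Prf1 and Ctsw, it was high in both Tcf1-deficient libraries, which lay above all 4 others. It was 2.56-fold higher in Tcf1-deficient than in p45-deficient cells, a log2 difference of 1.36 (SE 0.24, edgeR adjusted p = 0.0191), and was called in 12 of 14 alternatives. The call was lost without p45-deficient replicate 1 (adjusted p = 0.120) or replicate 2 (0.133), and adjusted p-values over the alternatives ran from 3.3e-06 to 0.133. Against control, Tcf1-deficient cells differed by 0.94 (SE 0.23, edgeR adjusted p = 0.463), which DESeq2 called (adjusted p = 0.0319, with 1 the highest over the alternatives). The log2 difference of p45-deficient from control cells was −0.42 (SE 0.24, edgeR adjusted p = 0.259). Srgn, whose product holds granzymes and perforin in the granule, stood at 73.6 and 143 CPM in control, 82.3 and 77.6 CPM in p45-deficient and 147 and 117 CPM in Tcf1-deficient libraries. The 2 control libraries spanned nearly the whole range of the other 4. Its log2 differences were −0.44 for p45-deficient against control (SE 0.30, edgeR adjusted p = 0.346), 0.28 for Tcf1-deficient against control (SE 0.30, adjusted p = 0.826) and 0.72 for Tcf1-deficient against p45-deficient (SE 0.30, adjusted p = 0.159). The last was called with DESeq2 (adjusted p = 0.0455) and without control replicate 1 (0.0465) or replicate 2 (0.0474), with 0.461 the highest over the alternatives. The first was 0.06 without control replicate 2, and the second −0.12 without control replicate 1. The summed level of 14 immediate-early genes, among them Fos and Egr1, was set beside Nkg7 and Srgn. It was 891 and 3689 CPM in control, 608 and 583 CPM in p45-deficient and 3132 and 3806 CPM in Tcf1-deficient libraries. Like Nkg7 and Srgn, it was higher in control replicate 2 than in replicate 1. Unlike them, it was higher in Tcf1-deficient replicate 2 than in replicate 1. The part of these genes in the Nkg7 and Srgn values was not tested.

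Serpinb9, the intracellular inhibitor that protects killer cells from granzyme B, stood at 6.28 and 7.14 CPM in control, 16.7 and 14.4 CPM in p45-deficient and 15.3 and 7.78 CPM in Tcf1-deficient libraries. All 4 mutant libraries were above both control libraries, and Tcf1-deficient replicate 2 was close to them. It was 2.31-fold higher in p45-deficient than in control cells, a log2 difference of 1.21 (SE 0.33), just past the threshold (edgeR adjusted p = 0.0493). The call held in 5 of 14 alternatives, and adjusted p-values ran from 0.00365 to 0.252, the highest without control replicate 1. It was lost without control replicate 2 (0.171), p45-deficient replicate 1 (0.243) or p45-deficient replicate 2 (0.158). Tcf1-deficient cells differed from control by 0.78 (SE 0.33, edgeR adjusted p = 0.626), a value set by replicate 1: it was 0.21 without replicate 1 (adjusted p = 0.836) and 1.18 without replicate 2 (adjusted p = 0.0219). Serpinb9 and Gzmb each belong to a family of related genes, and how reads shared between copies were counted is not stated. Serpinb9c, Serpinb9d, Serpinb9e, Serpinb9f and Serpinb9g had 0 counts in every library, and Serpinb9b at most 8.

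Lamp1, a membrane protein of all lysosomes, varied least of the 10 genes, at 115 and 120 CPM in control, 146 and 140 CPM in p45-deficient and 127 CPM in both Tcf1-deficient libraries. The p45-deficient libraries were the 2 highest. The log2 difference from control was 0.28 in p45-deficient cells (SE 0.11, edgeR adjusted p = 0.112) and 0.11 in Tcf1-deficient cells (SE 0.11, adjusted p = 0.813), and Lamp1 passed the test in 0 of 14 alternatives in each comparison. Ctsc, the dipeptidyl peptidase that trims granzyme precursors to their active form, stood at 36.1 and 53.3 CPM in control, 68.4 and 54.6 CPM in p45-deficient and 50.3 and 55.5 CPM in Tcf1-deficient libraries. Control replicate 1 was the lowest of the 6 and the others lay between 50.3 and 68.4 CPM. The log2 difference from control was 0.46 in p45-deficient cells (SE 0.21, edgeR adjusted p = 0.167) and 0.24 in Tcf1-deficient cells (SE 0.21, adjusted p = 0.776), the latter −0.01 without control replicate 1. Ctsc was also called in 0 of 14 alternatives in each comparison.

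Tcf1-deficient replicate 1 held the highest values of Gzmb, Gzmk, Prf1, Ctsw, Nkg7 and Srgn among the 6 libraries. Genes of double-positive or mature T cells were high in the same library. All 12 of that list were at or above 1 CPM in every library, and their summed level was 2277 CPM there, 1050 CPM in Tcf1-deficient replicate 2, 766 and 956 CPM in control and 1062 and 1021 CPM in p45-deficient libraries. Cd4, absent from the surface of sorted cells by definition, stood at 372 CPM in Tcf1-deficient replicate 1 and at 46.1 CPM in replicate 2, with 63.1 and 86.5 CPM in control. The interleukin receptor genes Il2rb, at 80.6 against 11.8 CPM, and Il18r1, at 59.3 against 7.28 CPM, were likewise higher in replicate 1 than in replicate 2. So were the natural killer cell receptor genes Klrd1, with 68 against 27 counts, and Klrc1, with 82 against 22 counts. The part of double-positive, mature T or natural killer cells in the granule values was not tested. The summed level of the DN3 list was lowest in replicate 1, at 9571 CPM against 11968 to 13802 CPM in the other 5 libraries.

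**Figure D3:**
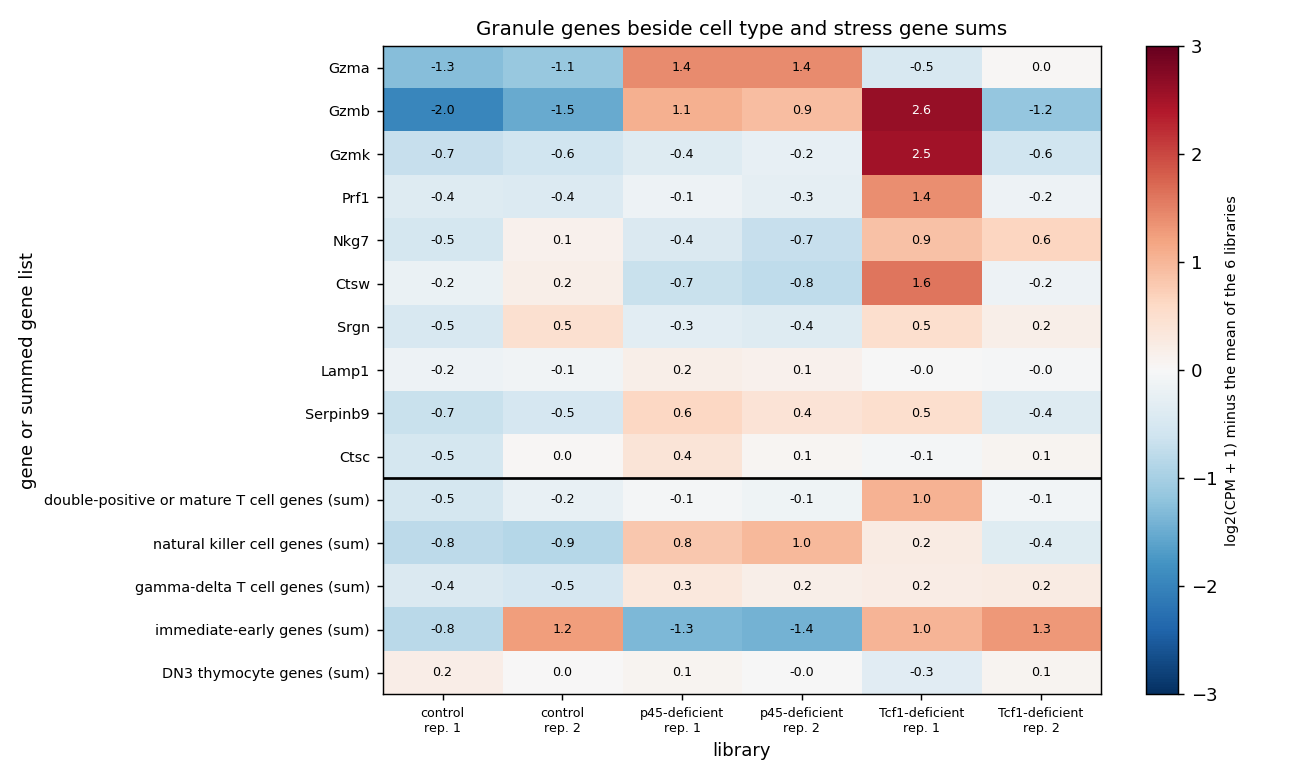
Colour and number give log2(CPM + 1) of each member (above the line) and of summed gene lists (below it) in each library, minus the mean of the row over the 6 libraries. Tcf1-deficient replicate 1 stands out in Gzmb, Gzmk, Prf1 and Ctsw and in the genes of double-positive or mature T cells, whereas Gzma is highest in both p45-deficient libraries.

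Markers of other cells that use granzymes were set beside the high Gzma of p45-deficient cells. The 15 natural killer cell genes summed to 8.80 and 8.36 CPM in control, 28.6 and 32.4 CPM in p45-deficient and 19.0 and 12.3 CPM in Tcf1-deficient libraries, with 2 to 5 of them at or above 1 CPM in a library. Ncr1, the defining receptor of natural killer cells, had 0 counts in 5 libraries and 1 count in control replicate 1, and Klra4 and Klra8 had 0 counts in all. Most of the summed level in p45-deficient libraries was Cd160, a receptor of killer lymphocytes and some intraepithelial T cells, which rose from 3.38 and 2.86 CPM in control to 24.8 and 25.3 CPM (log2 difference 3.01, SE 0.24, edgeR adjusted p = 0.00178). Cd160 stood at 4.0 and 5.04 CPM in Tcf1-deficient libraries. Of 12 gamma-delta T cell genes listed, 10 were in the files, and they summed to 391 and 367 CPM in control, 650 and 593 CPM in p45-deficient and 611 and 621 CPM in Tcf1-deficient libraries, with 7 at or above 1 CPM in each library. Of the 7 tested genes of that list, 3 were called higher and 1 lower in p45-deficient than in control cells, beside 8.47% and 7.55% of all genes (16.0%). The 3 were Cd163l1, a scavenger receptor of gamma-delta T cells (68.4 and 53.0 CPM in control, 383 and 249 CPM in p45-deficient libraries), the kinase Blk (17.8 and 14.7 against 37.7 and 35.8 CPM) and the ETS factor Etv5 (28.2 and 23.4 against 59.9 and 108 CPM). The 1 lower was 5830411N06Rik, at 170 and 198 CPM in control and 67.2 and 92.7 CPM in p45-deficient libraries (log2 difference −1.21, edgeR adjusted p = 0.00737). Without p45-deficient replicate 1 the calls of Blk (0.0648) and 5830411N06Rik (0.0631) were lost, and that of Blk also without control replicate 2 (0.0503). That of Etv5 was lost without control replicate 1 (0.0958) or replicate 2 (0.103). The list thus did not move in 1 direction. The part of natural killer or gamma-delta T cells in the Gzma values was not tested. Mast cell genes summed to 7.15 and 18.2 CPM in control, 6.69 and 4.26 CPM in p45-deficient and 14.3 and 35.9 CPM in Tcf1-deficient libraries, and most of each sum was Cpa3, the 1 gene of the list that reached 1 CPM. Other genes of the list went the other way at very low counts: the protease gene Mcpt4 had 9 and 6 counts in p45-deficient libraries and 0 in the other 4, and Mcpt1, Cma1 and Tpsb2 had counts in p45-deficient replicate 1 alone. Hdc had 16 and 11 counts in p45-deficient libraries against 5 and 5 in control. Gata2 had 0 counts in control, 6 and 15 counts in p45-deficient and 6 and 12 counts in Tcf1-deficient libraries, and Tpsab1 and Fcer1a had 0 in all.

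Other genes of the granule pathway were counted by role, from lists chosen by textbook function. Of the 7 other granzymes, Gzmd, Gzme, Gzmf, Gzmg and Gzmn had 0 counts in every library, Gzmc was at most 0.835 CPM, and Gzmm, the 1 tested, stood between 0.625 and 0.957 CPM and was not called in any comparison. Of 16 genes that sort or process granule cargo, 0 were called against control in either mutant, beside 16.0% (p45-deficient) and 0% (Tcf1-deficient) of all genes. Between the mutants 1 was called, beside 10.4% of all genes. It was the cysteine protease inhibitor Cst3, lower in Tcf1-deficient than in p45-deficient cells (log2 difference −0.47, edgeR adjusted p = 0.0440). The Cst3 call was lost in 11 of 14 alternatives, among them the fits without any 1 library other than Tcf1-deficient replicate 2, with adjusted p-values up to 0.276. Of 14 tested genes of granule exocytosis, 2 fell and 0 rose in p45-deficient against control cells, near the 16.0% of all genes called. The count ran from 1 to 6 over the alternatives, with 1 gene called higher by DESeq2, with the 2 groups alone and without either Tcf1-deficient library. Sytl1, a synaptotagmin-like effector of Rab27, fell from 120 and 111 CPM to 50.7 and 50.4 CPM (log2 difference −1.19, SE 0.12, edgeR adjusted p = 0.00249), in all 14 alternatives. Vamp2, a vesicle fusion protein, fell from 58.0 and 69.3 CPM to 37.2 and 37.9 CPM (log2 difference −0.76, SE 0.13, edgeR adjusted p = 0.0126), a call lost without control replicate 2 (0.0601), p45-deficient replicate 1 (0.131) or p45-deficient replicate 2 (0.103). Both stood higher in Tcf1-deficient libraries, Sytl1 at 93.6 and 102 CPM and Vamp2 at 62.0 and 62.5 CPM, and both were called higher there than in p45-deficient cells, by 0.95 (edgeR adjusted p = 0.00685) and 0.73 (0.0209). Without either p45-deficient library these 2 calls were lost, with adjusted p-values from 0.0762 to 0.190.

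Among 4 tested serpins other than Serpinb9, 1 was called lower and 0 higher in p45-deficient cells, beside 7.55% and 8.47% of all genes. Serpinb1a, an inhibitor of neutrophil proteases, fell from 8.07 and 11.4 CPM in control to 3.31 and 2.87 CPM (log2 difference −1.65, SE 0.34, edgeR adjusted p = 0.0215). That call was lost when any control or p45-deficient library was left out, with adjusted p-values from 0.0654 to 0.139. In Tcf1-deficient libraries Serpinb1a stood at 8.26 and 13.8 CPM, higher than in p45-deficient cells by 1.83 (edgeR adjusted p = 0.0222), a call lost without p45-deficient replicate 1 (0.143) or replicate 2 (0.145). Of 10 tested death ligands and effector cytokines 0 were called against control in either mutant, beside 16.0% (p45-deficient) and 0% (Tcf1-deficient) of all genes. All 10 had a log2 difference above 0 in Tcf1-deficient against control cells, with a median of 2.00 beside 0.01 over all genes. Of the 10, 6 had an unadjusted edgeR p under 0.05, beside 4.30% of all genes that were higher at that threshold (7.91% in either direction). Several were carried by Tcf1-deficient replicate 1. There the chemokine genes Ccl5 and Xcl1 stood at 69.9 and 5.23 CPM, against 6.20 and 0.291 CPM in replicate 2. The lymphotoxin genes Lta and Ltb stood at 7.61 and 219 CPM, against 0.832 and 59.8 CPM. Tnf was not carried by replicate 1: it stood at 12.7 and 13.9 CPM in Tcf1-deficient libraries, with 2.80 and 6.91 CPM in control. Ccl4, a chemokine of activated killer cells, stood at 0.532 and 3.13 CPM in control, 0.625 and 0.479 CPM in p45-deficient and 10.2 and 6.20 CPM in Tcf1-deficient libraries. It was higher in Tcf1-deficient than in p45-deficient cells by 3.87 (SE 0.81, edgeR adjusted p = 0.0325), a call lost without Tcf1-deficient replicate 1 (0.0583), p45-deficient replicate 1 (0.221) or p45-deficient replicate 2 (0.211).

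Of 18 tested transcription factors of the cytotoxic programme, 2 were called higher and 2 lower in p45-deficient than in control cells, beside 8.47% and 7.55% of all genes (16.0%). Lef1, the close relative of Tcf1, rose from 460 and 428 CPM to 969 and 1006 CPM (log2 difference 1.15, edgeR adjusted p = 0.0021), in all 14 alternatives. Batf, an AP-1 family factor of effector T cells, rose from 6.14 and 6.83 CPM to 18.8 and 20.2 CPM (log2 difference 1.59, SE 0.28, edgeR adjusted p = 0.0131). Zeb2, a transcriptional repressor active in terminal effector cells, fell from 28.7 and 33.9 CPM to 7.87 and 2.82 CPM (log2 difference −2.53, SE 0.54, edgeR adjusted p = 0.0304). Stat5a, a transducer of interleukin signals, fell from 251 and 243 CPM to 164 and 174 CPM (log2 difference −0.55, edgeR adjusted p = 0.0185). The calls of Batf and Stat5a were lost when any control or p45-deficient library was left out, with adjusted p-values from 0.0615 to 0.210, and that of Zeb2 without either control library or p45-deficient replicate 2 (0.0809 to 0.108). The called factors of the list went in both directions. The list was not divided by whether a factor drives or restrains the programme. These directions thus do not say which way the programme moved. In Tcf1-deficient against p45-deficient cells, 5.05% of all genes were called higher and 5.36% lower (10.4%). Of the 18 factors, 3 were called higher there, Zeb2 (log2 difference 2.41, edgeR adjusted p = 0.0444), Bhlhe40 (1.77, 0.0452) and Stat4 (0.87, 0.0414), and 2 lower, Tcf7 itself and Lef1 (−0.71, 0.0124). Of these 5, the calls other than that of Tcf7 were lost without p45-deficient replicate 1 or replicate 2, with adjusted p-values from 0.0539 to 0.238. Without either Tcf1-deficient library those of Zeb2 and Bhlhe40 were lost too (0.0561 to 0.135), and that of Zeb2 without either control library (0.0841 and 0.0800). Of 12 cytokine receptors 0 were called in any comparison. Of all genes, 16.0% were called in p45-deficient and 0% in Tcf1-deficient against control cells, and 10.4% between the mutants. The most abundant receptor, Il2ra, stood at 969 and 1197 CPM in control, 1561 and 1348 CPM in p45-deficient and 923 and 1991 CPM in Tcf1-deficient libraries.

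**Figure D4:**
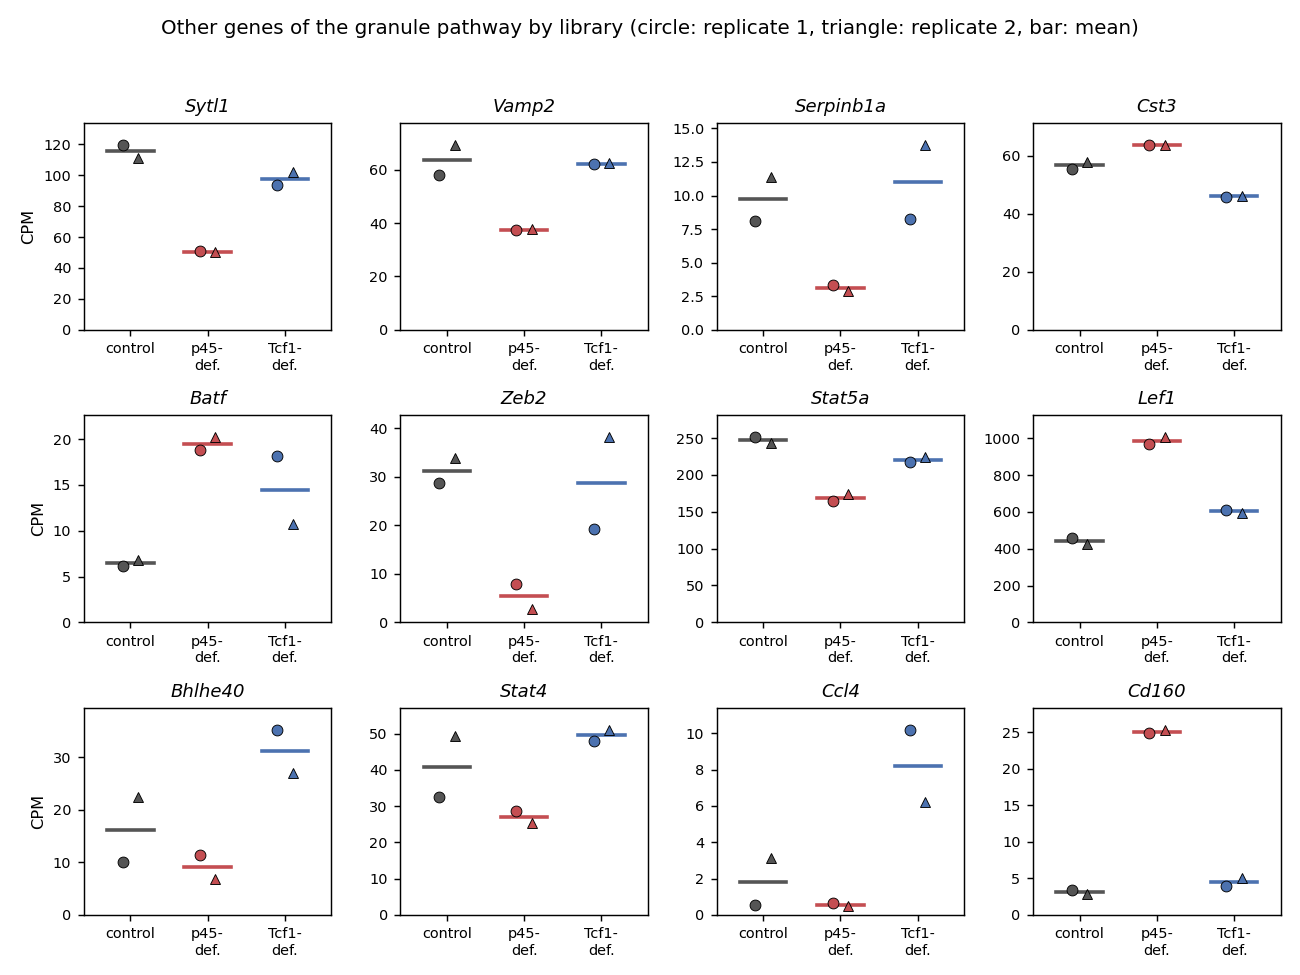
Level in CPM of 12 named genes around the granule pathway, 1 panel per gene with its own linear axis from 0, by group. Circles are replicate 1, triangles replicate 2 and bars the mean. Sytl1, Vamp2, Serpinb1a and Zeb2 are lowest in both p45-deficient libraries, and Lef1 and Cd160 are highest there.

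The genes whose pattern over the 6 libraries was most like that of a member were ranked by Pearson's r of log2(CPM + 1) over 9809 genes of at least 5 CPM on average. With 6 libraries in 3 groups such values run high, and they are given as a description. For Gzma the nearest were Ubb (r = 0.998), Rbl1 (0.998) and Ptma (0.998), and 393 genes had an r over 0.95. For Gzmb they were Osbpl3 (0.996), Psmb9 (0.995) and Smurf2 (0.995), for Prf1 Fam129a (0.997), Add1 (0.996) and Tap1 (0.996), and for Ctsw Tapbp (0.997), Tecpr1 (0.996) and Dip2b (0.993). For Nkg7 they were Utrn (0.990), Peak1 (0.986) and Nfkbid (0.984), and for Srgn Ndel1 (0.994), 2610018G03Rik (0.992) and Ranbp9 (0.988). For Serpinb9 they were Lactb (0.999), Atp2b1 (0.998) and Cd3d (0.996), for Lamp1 Sec11c (0.997), Trmt10c (0.996) and Cyb5r4 (0.995), and for Ctsc Shoc2 (0.993), Dusp11 (0.987) and Tmx3 (0.986). Among the members themselves, Gzma was most like Lamp1 (r = 0.972), Gzmb most like Serpinb9 (0.938), Nkg7 most like Srgn (0.881) and Prf1 most like Ctsw (0.866). Gzma and Ctsw had an r of −0.533. The members thus did not share 1 pattern over these libraries.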

How the data were processed

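RNA of sorted DN3 thymocytes was measured in 6 libraries, grouped by the genotype in their labels. The deposited tables hold raw read counts by gene symbol, as the authors counted them. Per the submitters' processing notes the tools were featureCounts 1.5.0-p3, DESeq2 3.4 and TopHat2, the last with no version given, on the build mm9, with no role or order stated. No annotation or strand setting is given in the sources used here: overlapping, antisense and near-identical genes may not be separated.

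Counts were tested with edgeR 4.0.16 (limma 3.58.1, R 4.3.3): filterByExpr, TMM scaling, 1 mean per group over all 6 libraries (3 residual degrees of freedom), robust quasi-likelihood F test, two-sided, Benjamini-Hochberg adjustment over 12939 genes within a comparison, threshold 0.05. SEs come from the F statistic. CPM use TMM-scaled totals. The procedure was tested on simulated data. The 14 alternatives were DESeq2 1.42.0, RLE, library-total and upper-quartile scaling, no count filter, no robust moderation, a replicate block, the 2 groups alone, and each library left out. With 2 libraries against 2, an exact permutation test cannot go below p = 0.333 and was not used. The 2 libraries of a group differed by more than counting noise (chi-square per degree of freedom 9.79 to 73.1), so none was taken for a library deposited again. That does not show separate animals.

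Exon lengths were taken from GENCODE M21 and promoters from RefSeq, both of GRCm38, and used only for levels per kb and for sequence. The members and lists were chosen with earlier results of these data known. All members were named, with every called gene of a pathway list (up to 4 a list and comparison) or otherwise its most abundant gene, and the 3 genes most like each member. Il2rb, Il18r1, Cd160, Gzmc, Ccl5, Xcl1, Lta, Ltb, Tnf, Eomes, Prdm1, Tbx21 and the marker genes named beyond the defining ones were chosen after their values were seen.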

Additional observations from a re-analysis of the deposited data

How the results depend on the processing

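With 2 libraries a group, and 1 left in a group when a library is left out (its spread then taken from the other groups), counts of calls depended on single libraries. For p45-deficient against control, 2 members were called, 1 under RLE, library-total and upper-quartile scaling, without robust moderation and with the replicate block, 4 with the 2 groups alone, and 1 to 4 with a library left out. Of all genes 2073 were called, 3907 with the 2 groups alone, and 258 to 3923 with a library left out. For Tcf1-deficient against control, 0 members were called, 3 with DESeq2, 1 without the count filter, and 0 to 6 with a library left out. Of all genes 0 were called, with 1024 at an unadjusted p under 0.05, 145 with DESeq2, 33 without the filter, and 0 to 894 with a library left out. For Tcf1-deficient against p45-deficient, 2 members were called, 5 with DESeq2, and 1 to 6 with a library left out. Of all genes 1348 were called, 2440 with DESeq2, 488 with the 2 groups alone, and 105 to 3437 with a library left out. The calls were 654 higher and 694 lower, and other scalings gave 744 higher and 483 lower with library totals, 698 and 543 with RLE, and 689 and 529 with upper quartiles. For p45-deficient against control they were 1096 higher and 977 lower, and 721 higher and 1281 lower with library totals and 820 and 1175 with upper quartiles. There the median log2 difference of all genes was 0.05, and −0.06 with library totals. The cause was not tested.

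The sign of 10 log2 differences turned when 1 library was left out. In p45-deficient against control, leaving out a library gave a range of −0.894 to 0.063 for Srgn and −2.54 to 0.0053 for Ccl4, the highest without control replicate 2. In Tcf1-deficient against control the range was −0.12 to 0.83 for Srgn and −0.010 to 0.55 for Ctsc, the lowest without control replicate 1, and −0.16 to 0.10 for Vamp2, the highest without control replicate 2. It was −0.16 to 1.63 for Ctsw, the lowest without Tcf1-deficient replicate 1, −0.72 to 0.29 for Zeb2, the highest without that library, and −0.24 to 0.50 for Serpinb1a, also below 0 (−0.04) without control replicate 1. In Tcf1-deficient against p45-deficient it was −2.34 to 1.65 for Gzmb, called at both ends, and −0.600 to 0.26 for Etv5, also above 0 (0.013) without Tcf1-deficient replicate 1.

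The replicate numbers share no stated animal or litter, and same-numbered libraries did not deviate together (r = −0.0496, −0.0527 and −0.0446). With the replicate block, 1613, 0 and 920 of all genes and 1, 0 and 2 members were called in the 3 comparisons in the order above, and Serpinb9 (adjusted p = 0.0554) and Zeb2 lost their calls in p45-deficient against control, and Cst3, Ccl4, Zeb2, Bhlhe40 and Stat4 in Tcf1-deficient against p45-deficient cells. Depth limits Gzmk, Prf1 and control Gzmb, which rest on few counts.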
